A study of Mus musculus with 8 samples.

Results

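Fat cells store triglyceride in a large lipid droplet and secrete hormones, and in the gut they lie mainly in the mesentery, the fatty fold that carries vessels to the bowel wall and is trimmed from the colon at dissection. The lipid droplet is coated by perilipins and fused by proteins of the CIDE family. Adiponectin, leptin, adipsin and resistin are released into the blood, and lipoprotein lipase with fatty acid binding proteins brings fatty acids into the cell. RNA of such cells can therefore be present in a dissected colon. The 10 adipocyte genes described here were chosen by symbol and not by a rule on their values, although earlier results of these data were known. Each symbol had 1 row among the 52143 gene rows of the table. The genes are Adipoq, Lep, Cfd and Retn, which encode secreted proteins, the lipid droplet genes Plin1, Plin4 and Cidec, the fatty acid genes Fabp4 and Lpl, and the carbonic anhydrase Car3.

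RNA was sequenced from the distal colon of 8 samples, 4 controls (Villin1-Cre-ERT) and 4 Siglec-XII samples (SIGLEC12-Villin1-Cre-ERT). All were from female mice listed as 8 weeks old, the age that the study's methods give at the first tamoxifen injection. Siglec-XII mice carried human SIGLEC12 in heterozygous form behind a floxed stop at the ROSA26 locus under the CAG promoter, and controls were littermates without it. Both groups carried the Cre-ERT recombinase, driven by the Villin1 promoter, which is active in the epithelium of villi and crypts and not in fat, and both received tamoxifen by 5 daily injections from a stock of 10 mg/ml. Colons were taken 7 days after the last dose, on day 12. The series' design text counts 3 mice for each condition, whereas 4 samples are listed in each group, and the study's methods name 3 technical replicate libraries for a sample. The labels do not say that samples with different numbers were different mice, so n counts samples and p-values measure the spread between these samples, which may be technical. Levels are given as TPM, a transcript abundance scaled for gene length and for library size, so that levels of different genes may be compared. SIGLEC12, EGFP and Cre had no row in the table used here, so the labels were not checked against the transgene. The epithelial genes Epcam and Krt8 stood at 1216 to 1614 TPM and 3573 to 5352 TPM, so the libraries were those of an epithelium-rich colon. The table holds no read counts, and the depth behind each level is therefore unknown.

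The 10 genes stood at low levels in the 8 libraries, and Plin1 was listed at 0 in control 3. Their summed level was 16.8, 71.7, 18.4 and 65.8 TPM in controls 1 to 4 and 24.8, 47.9, 53.4 and 39.7 TPM in Siglec-XII 1 to 4, which is from 0.00168 to 0.00717% of a library. Controls 2 and 4 were the highest samples and controls 1 and 3 the lowest, with all Siglec-XII samples between them. Of the 10 genes, 4 were highest in control 2, 4 in control 4 and 2 in Siglec-XII 3, and control 3 was among the lowest 2 samples for 8 genes. The mean log2(TPM + 1) over the 10 genes was 1.70 ± 0.62 (SD, n = 4) in controls and 1.79 ± 0.26 (SD, n = 4) in Siglec-XII samples. The difference of 0.08 was smaller than the SD within either group, and it was below 0 without control 1 (-0.10) or without control 3 (-0.09). In bulk tissue, fewer fat cells and less RNA per fat cell cannot be told apart.

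**Figure D1:**
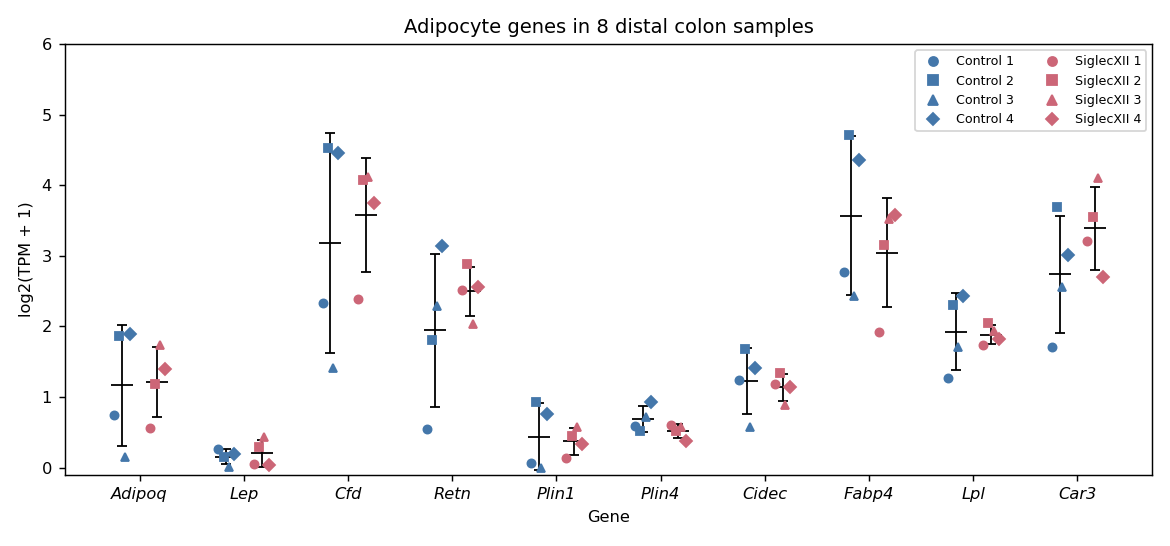
Levels of the 10 adipocyte genes as log2(TPM + 1) (vertical axis), by gene (horizontal axis). Each point is 1 sample (blue, control; red, Siglec-XII; the marker shape gives the sample number), and black bars give the group mean ± SD of 4 samples. Controls 2 and 4 sit above controls 1 and 3 for Adipoq, Cfd, Plin1, Fabp4, Lpl, Cidec and Car3, and the groups overlap for every gene.

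The sequence before the start of 5 genes is shown because Adipoq, Cfd and Plin1 varied together over the 8 samples, whereas Retn and Lep followed them less closely. RefSeq promoters of the GRCm38.p6 build, 250 bases before to 50 bases after a start, matched 7 of the 10 genes with 8 promoters (Cidec had 2), and Fabp4, Lpl and Car3 were not among them. Sequences are written 5′ to 3′ on the strand of the gene and end before the annotated start, and capitals mark a match to the C/EBP motif TTGCNNAA on either strand, the motif of a family of factors used in fat cell development.
Adipoq (chr16:23146286-23146535, plus strand): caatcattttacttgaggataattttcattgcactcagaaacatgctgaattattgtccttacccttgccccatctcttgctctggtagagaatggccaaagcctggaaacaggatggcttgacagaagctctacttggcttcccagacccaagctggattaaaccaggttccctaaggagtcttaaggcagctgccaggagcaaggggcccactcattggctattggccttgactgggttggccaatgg
Cfd (chr10:79890603-79890852, plus strand): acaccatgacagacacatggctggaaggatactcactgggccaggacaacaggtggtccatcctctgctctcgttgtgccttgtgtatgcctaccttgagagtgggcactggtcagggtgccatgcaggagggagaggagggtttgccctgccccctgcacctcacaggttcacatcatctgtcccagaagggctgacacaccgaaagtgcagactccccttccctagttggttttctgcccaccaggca
Plin1 (chr7:79732904-79733026, minus strand): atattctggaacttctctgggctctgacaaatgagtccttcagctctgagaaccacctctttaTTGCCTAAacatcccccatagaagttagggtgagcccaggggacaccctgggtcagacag
Retn (chr8:3655520-3655769, plus strand): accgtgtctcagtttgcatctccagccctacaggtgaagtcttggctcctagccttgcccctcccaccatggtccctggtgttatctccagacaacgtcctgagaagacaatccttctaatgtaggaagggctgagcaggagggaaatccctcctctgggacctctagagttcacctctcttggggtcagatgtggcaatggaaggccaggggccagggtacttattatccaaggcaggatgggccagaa
Lep (chr6:29059971-29060219, plus strand): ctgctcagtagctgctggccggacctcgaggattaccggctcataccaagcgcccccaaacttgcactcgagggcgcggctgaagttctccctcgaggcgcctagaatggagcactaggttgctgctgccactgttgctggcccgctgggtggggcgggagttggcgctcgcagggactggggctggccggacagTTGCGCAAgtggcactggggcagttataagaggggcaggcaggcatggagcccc

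In the full 300 bases, the C/EBP motif was found in Lep, its first base 55 bases before the start, in Plin1 at 187 and 58 bases before the start, and in the second Cidec promoter at 198 bases. The 58-base match of Plin1 is not in the stretch printed above, which stops where a longer annotated transcript of Plin1 begins. Of 32817 promoters of the same length, 10.8% hold this motif. The letters TATAAA (13.6% of promoters) and AGGNCANAGGNCA (0.381% of promoters), a direct repeat of the kind bound by PPAR and RXR, were found in none of the 8 promoters on either strand. These are matches of letters in a short window, and Adipoq, Cfd and Plin1 did not share one of these 3 motifs. Fabp4 and Lpl, which varied with them, had no promoter to scan.

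Adipoq encodes adiponectin, a hormone made almost solely by fat cells, and lies at chr16:23146536-23158028 of GRCm38. Adipoq stood at 0.685, 2.63, 0.115 and 2.71 TPM in controls 1 to 4 and 0.471, 1.26, 2.32 and 1.63 TPM in Siglec-XII 1 to 4. Controls 2 and 4 and Siglec-XII 3 were the highest and control 3 the lowest, and the groups overlapped. The difference between Siglec-XII samples and controls in log2(TPM + 1) was 0.05 ± 0.42 (SE, n = 4 per group; adjusted p = 0.956 in limma). Omitting each sample once gave differences between -0.29 and 0.29, and the sign was negative without control 1, control 3, Siglec-XII 3 or Siglec-XII 4.

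Cfd encodes adipsin, complement factor D, a protease of the alternative complement pathway that fat cells secrete (chr10:79890853-79892655). Its level was 4.05, 22.0, 1.67 and 21 TPM in controls 1 to 4 and 4.25, 15.9, 16.3 and 12.4 TPM in Siglec-XII 1 to 4. The order of the samples was close to that of Adipoq, with control 3 again lowest and controls 2 and 4 highest. The groups overlapped, and the log2 difference was 0.40 ± 0.72 (SE, n = 4 per group; adjusted p = 0.791 in limma). Without control 3 it was -0.19.

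Lep encodes leptin, the satiety hormone of fat (chr6:29060220-29073877), and was the lowest of the 10 genes. It stood at 0.200, 0.106, 0.0115 and 0.148 TPM in controls 1 to 4 and 0.0328, 0.223, 0.356 and 0.0226 TPM in Siglec-XII 1 to 4. No sample reached 1 TPM, so Lep did not pass the filter on low values (1 TPM or more in 4 or more samples). It was read from the same fit without the filter, where the log2 difference was 0.05 ± 0.10 (SE, n = 4 per group; adjusted p = 0.856 in limma). The sign was below 0 without control 3 or Siglec-XII 3.

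Retn encodes resistin, a hormone that mouse fat cells secrete (chr8:3655770-3660110). Retn stood at 0.462, 2.50, 3.88 and 7.82 TPM in controls 1 to 4 and 4.70, 6.38, 3.09 and 4.91 TPM in Siglec-XII 1 to 4. Control 1 was lowest and control 4 highest, so the controls spanned the range of the Siglec-XII samples. The log2 difference was 0.55 ± 0.48 (SE, n = 4 per group; adjusted p = 0.594 in limma). Without control 1 it was 0.09 and without control 4 it was 0.95 (unadjusted p = 0.0436 in limma), and over its alternatives the unadjusted p ranged from 0.0436 to 0.80.

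Plin1 encodes perilipin 1, which coats the lipid droplet of fat cells and controls access of lipases to it (chr7:79720218-79732903). It was listed at 0.0501, 0.910, 0 and 0.688 TPM in controls 1 to 4 and 0.0960, 0.371, 0.493 and 0.258 TPM in Siglec-XII 1 to 4. Controls 2 and 4 were again the highest and controls 1 and 3 the lowest, and the groups overlapped. Plin1 did not pass the filter, and without it the log2 difference was -0.07 ± 0.23 (SE, n = 4 per group; adjusted p = 0.917 in limma), against 0.15 when each sample was centred on its median gene.

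Plin4 encodes perilipin 4, another droplet coat protein that muscle also makes (chr17:56100591-56109803). Its level was 0.502, 0.439, 0.645 and 0.903 TPM in controls 1 to 4 and 0.520, 0.432, 0.496 and 0.303 TPM in Siglec-XII 1 to 4. It varied least of the 10 genes, by 2.98-fold from lowest to highest sample, and the groups overlapped. The log2 difference without the filter was -0.17 ± 0.11 (SE, n = 4 per group; adjusted p = 0.689 in limma), and it was 0.04 with median centring. Plin4 overlaps Hdgfl2 on the opposite strand, and whether the authors' quantification used strand is not given in the sources used here, so reads of the 2 genes might be shared.

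Cidec encodes a CIDE protein that fuses lipid droplets into larger ones, and also acts in the liver (chr6:113424634-113435760). It stood at 1.37, 2.19, 0.497 and 1.66 TPM in controls 1 to 4 and 1.28, 1.53, 0.845 and 1.21 TPM in Siglec-XII 1 to 4. Control 2 was highest and control 3 lowest, and the groups overlapped. The log2 difference was -0.09 ± 0.23 (SE, n = 4 per group; adjusted p = 0.858 in limma), and it was 0.12 with median centring and 0.07 with quantile normalization. Cidec lies 347.3 kb from Gt(ROSA)26Sor, the locus that carries the knock-in allele in one group only.

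Fabp4 encodes a fatty acid carrier of fat cells that capillary endothelium and macrophages also make (chr3:10204088-10208576). Its level was 5.85, 25.1, 4.41 and 19.5 TPM in controls 1 to 4 and 2.79, 7.91, 10.5 and 10.9 TPM in Siglec-XII 1 to 4. It had the highest single value of the 10 genes, in control 2, and Siglec-XII 1 was lowest. The groups overlapped, with a log2 difference of -0.52 ± 0.57 (SE, n = 4 per group; adjusted p = 0.659 in limma). Omitting each sample once left it below 0, between -0.90 and -0.14.

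Lpl encodes lipoprotein lipase, which frees fatty acids from lipoproteins in fat and muscle (chr8:68880491-68907448). Lpl stood at 1.41, 3.95, 2.26 and 4.40 TPM in controls 1 to 4 and 2.35, 3.13, 2.81 and 2.53 TPM in Siglec-XII 1 to 4. All Siglec-XII samples lay within the range of the controls. The log2 difference was -0.04 ± 0.25 (SE, n = 4 per group; adjusted p = 0.938 in limma), and it was 0.17 with median centring and 0.18 with quantile normalization.

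Car3 encodes carbonic anhydrase 3, an abundant protein of fat cells and of slow skeletal muscle (chr3:14863512-14872523). Its level was 2.27, 11.9, 4.88 and 7.04 TPM in controls 1 to 4 and 8.27, 10.7, 16.2 and 5.48 TPM in Siglec-XII 1 to 4. Siglec-XII 3 was highest and control 1 lowest, and control 2 lay above 3 of the 4 Siglec-XII samples. The log2 difference, the largest of the 10, was 0.65 ± 0.43 (SE, n = 4 per group; adjusted p = 0.531 in limma). Without control 1 it was 0.31 and without control 2 it was 0.97 (unadjusted p = 0.039 in limma), and the unadjusted p ranged from 0.039 to 0.425 over its alternatives.

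Of the 7 adipocyte genes that passed the filter, 0 passed adjusted p ≤ 0.05 in limma and 0 passed unadjusted p ≤ 0.05. Among all 13164 genes tested, 0.038% passed the adjusted threshold (5 genes) and 8.87% the unadjusted one (7.67% lower and 1.19% higher in Siglec-XII samples). Lep, Plin1 and Plin4 did not pass unadjusted p ≤ 0.05 in the fit without a filter either, where 6.52% of genes did. The samples of both groups overlapped for all 10 genes, whereas they did not overlap for 5.11% of the genes tested. The median log2 difference was 0.05 over the 7 adipocyte genes tested and -0.15 over all genes tested, of which 78.1% were below 0. Centring each sample on its median gene raised every difference by 0.21. With 4 samples per group and SDs between controls of up to 1.56 log2 units (Cfd), the SE of a difference reached 0.72, so differences of that size could not be resolved for the most variable genes.

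**Figure D2:**
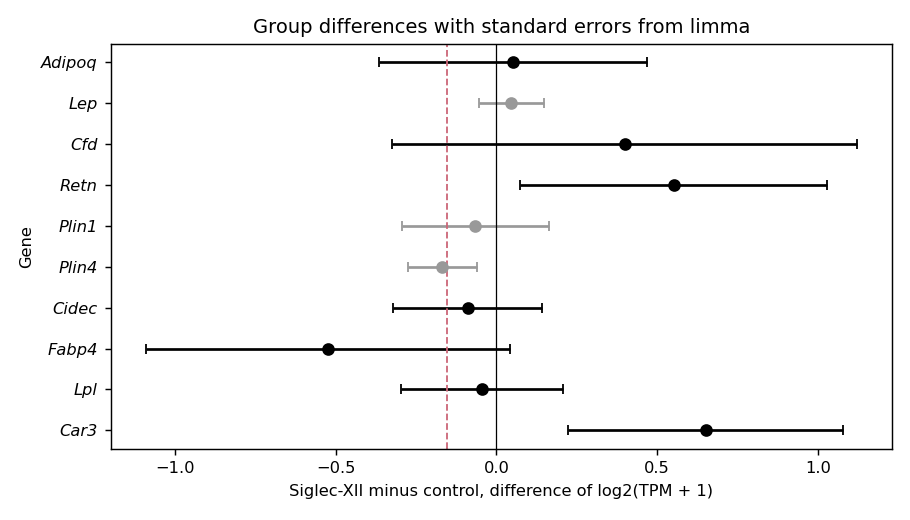
Difference in log2(TPM + 1), Siglec-XII minus control (horizontal axis), for each adipocyte gene (vertical axis), with bars giving the standard error from limma (n = 4 per group). Black points passed the filter on low values and grey points (Lep, Plin1, Plin4) did not; the dashed red line marks the median of all genes tested, -0.15. The differences lie between -0.52 (Fabp4) and 0.65 (Car3).

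The 10 genes did not vary as a single block. Adipoq, Plin1, Cfd, Fabp4 and Lpl varied together over the 8 samples, with Pearson r from 0.74 to 0.96 over their 10 pairs. Without the 2 samples farthest from the median of 1 gene of each pair these were from 0.79 to 0.92. Here and below, that gene is the one named first in the opening list of the 10. Where an adipocyte gene is set against another gene or a list mean, it is the adipocyte gene. The samples left out can therefore differ between pairs. Cfd was the closest partner of Adipoq, at r = 0.96 (Spearman rho = 0.93), and the ratio of Cfd to Adipoq stayed between 5.91 and 14.5 while Adipoq itself varied 23.6-fold. Mrap, which encodes an accessory protein of the melanocortin receptor in fat cells, followed the same order (rho = 0.93 with each of Adipoq, Plin1, Cfd and Fabp4), although its level was 0 to 0.412 TPM. These correlations describe 8 samples that share dissection and libraries between genes, and genes were chosen after their correlations were seen, so no p is given.

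Retn, Lep and Plin4 were less closely tied to this set. The ratio of Retn to Adipoq ranged from 0.674 in control 1 to 33.8 in control 3, a 50.2-fold range. Their correlation was 0.22, or 0.55 without the 2 farthest samples. With the other 9 genes Retn had r from -0.22 (Lep) to 0.67 (Lpl). Lep had r from -0.22 to 0.47 with the other genes, and Plin4 from -0.10 to 0.32. Cidec and Car3 were intermediate, at r = 0.60 and 0.55 with Adipoq. Without the 2 farthest samples these were 0.20 and 0.71, and r with Adipoq was -0.06 for Lep and 0.38 for Plin4. How closely a gene followed Adipoq thus depended in part on 2 samples. Over all 45 pairs the median r was 0.46 and 4 pairs were below 0.

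**Figure D3:**
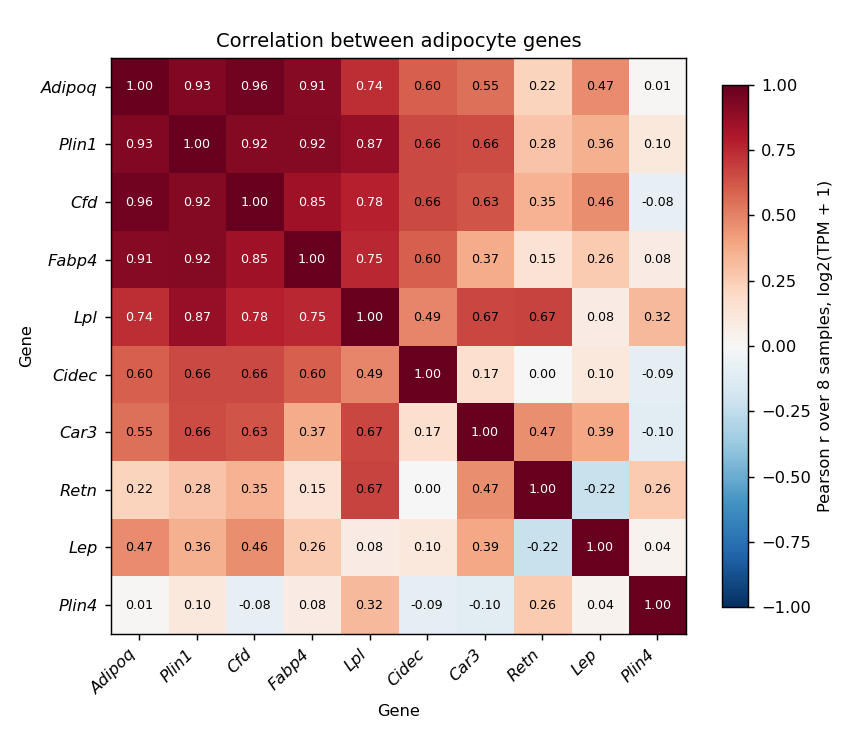
Pearson r between the adipocyte genes over the 8 samples, on log2(TPM + 1). Rows and columns are genes, each cell prints its r, and red is positive and blue negative on the color scale. The block of Adipoq, Plin1, Cfd, Fabp4 and Lpl has r of at least 0.74, and Retn, Lep and Plin4 have low r with Adipoq (0.22, 0.47 and 0.01).

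Retn varied with genes of sebaceous glands, the lipid-secreting glands of skin. Elovl3 and Scd3, which elongate and desaturate fatty acids there, had r = 0.95 (rho = 0.86) and r = 0.96 (rho = 0.88) with Retn, and Awat1, a wax synthase, had 0.93. Retn and Elovl3 were both lowest in control 1, where Elovl3 stood at 0.0958 TPM, and both highest in control 4, at 11.0 TPM for Elovl3. With the 2 farthest samples left out, r was 0.68 for Elovl3, 0.77 for Scd3 and 0.71 for Awat1, and it was 0.94 and then 0.64 for the mean of 12 sebaceous genes. That list was chosen after the values were seen. With the same mean, r was 0.67 for Lpl, 0.49 for Car3 and 0.11 for Adipoq. Without the 2 farthest samples it was -0.48 for Lpl, -0.10 for Car3 and 0.68 for Adipoq, beside 0.64 for Retn. Of the 11 sebaceous genes tested, 0 passed unadjusted p ≤ 0.05 between the groups. With Retn, r was 0.87 for Scd1, 0.90 for Krt79 and 0.69 for Cidea, and 0.20, 0.36 and 0.16 without the 2 farthest samples. Mgll, one of the other genes used by fat cells, had r = 0.93 with Retn (rho = 0.86, and 0.71 without the 2 farthest samples). The sebaceous genes are not exclusive to these glands. Scd1 and Cidea are also fat genes, and Elovl3 and Cidea are also read below as genes of brown fat. The part of sebaceous cells in the level of Retn was not tested.

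Car3 varied with skeletal muscle genes and also with some fat cell genes. Acta1, skeletal actin, stood at 5.81, 24.1, 20.1 and 8.41 TPM in controls 1 to 4 and 37.0, 31.8, 51.4 and 15.8 TPM in Siglec-XII 1 to 4, and its r with Car3 was 0.83 (rho = 0.81; 0.47 without the 2 farthest samples). Over the mean of 12 skeletal muscle genes r was 0.77 (0.41 without the 2 farthest samples), against 0.03 for Adipoq. With Adig, another gene of fat cells, Car3 had r = 0.82 (0.36 without the 2 farthest samples). It had 0.66 with Plin1, 0.67 with Lpl, 0.17 with Cidec and -0.10 with Plin4. With group means removed, r with Car3 was 0.76 for Adig, 0.80 for Plin1 and 0.79 for Lpl. It was 0.78 for Acta1 and 0.71 for the skeletal muscle mean. All 8 skeletal muscle genes tested were higher in Siglec-XII samples at unadjusted p ≤ 0.05, against 1.19% of all genes, and 0 passed at adjusted p (smallest adjusted p = 0.515 in limma), with a median log2 difference of 1.21. The count was 4 of 8 without Siglec-XII 3, 5 of 8 without control 1, control 4 or Siglec-XII 1, and 8 of 8 with median centring. Their summed level was 29.3 to 81.2 TPM in controls and 69.1 to 203 TPM in Siglec-XII samples. Their part in the level of Car3 was not tested.

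**Figure D4:**
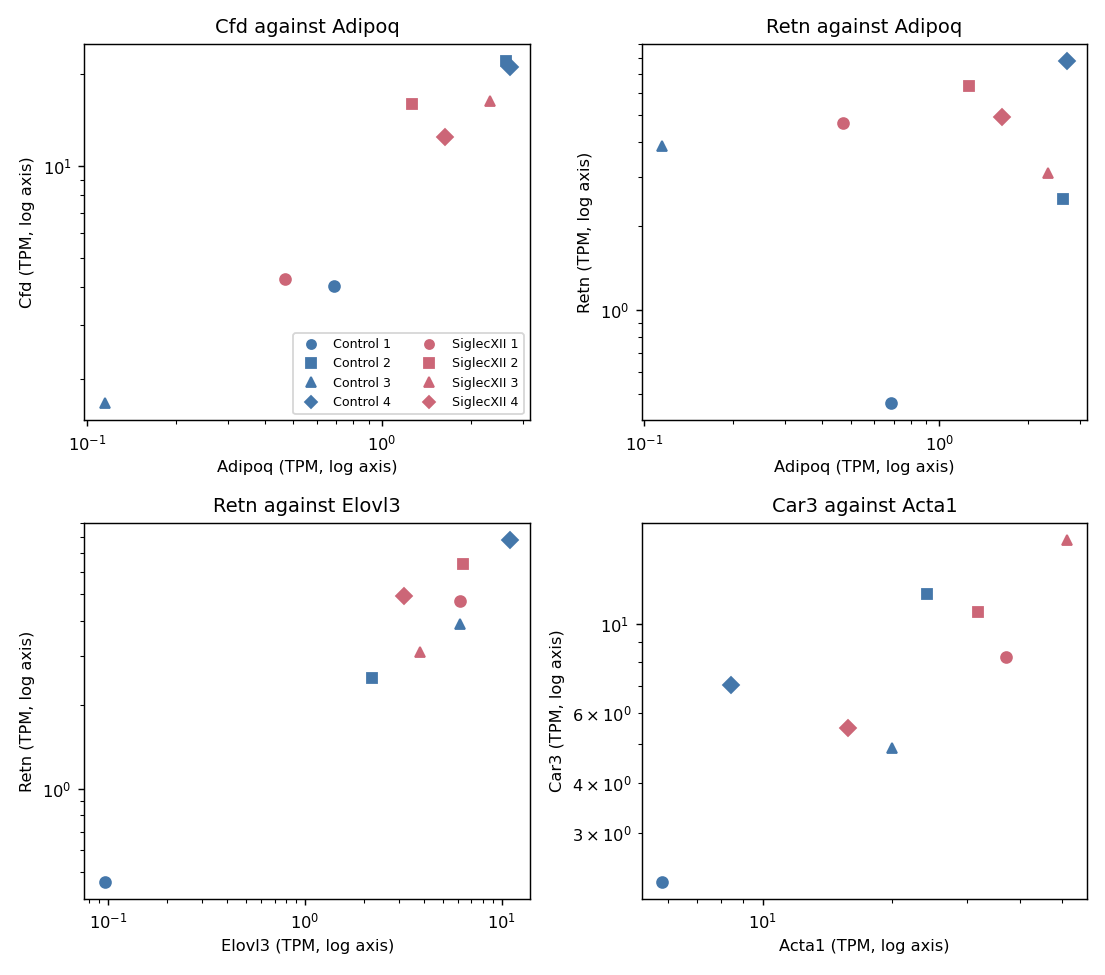
Levels of pairs of genes in each sample, in TPM on log axes (blue, control; red, Siglec-XII; marker shape, sample number). Cfd varied with Adipoq (r = 0.96 on log2(TPM + 1)), and Retn less closely so (r = 0.22, or 0.55 without the 2 farthest samples). Retn varied with Elovl3 (r = 0.95), and Car3 varied with the skeletal muscle gene Acta1 (r = 0.83). Control 1 was lowest for Retn and Elovl3 and for Car3 and Acta1.

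Plin4 varied with genes of smooth muscle, the muscle of the bowel wall. Its r with the mean of 9 smooth muscle genes was 0.73 (rho = 0.86; 0.88 without the 2 farthest samples). With group means removed, r was 0.58 with smooth muscle genes and 0.71 with sebaceous genes. All 9 had differences below 0, and 4 of them, Myh11, Cnn1, Des and Synpo2, were lower in Siglec-XII samples at unadjusted p ≤ 0.05, against 7.67% of all genes (0 at adjusted p). The count was 9 with array weights, 7 without Siglec-XII 1, 3 with median centring, 2 without Siglec-XII 3 and 4, and 1 without control 3. Their summed level was 678 to 1084 TPM in controls and 328 to 697 TPM in Siglec-XII samples. The part of smooth muscle in the level of Plin4 was not tested.

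Fabp4 was also set against Cfd and Adipoq within each sample, whereas Plin1, its closest partner (r = 0.92), gave no ratio because it was listed at 0 in control 3. The ratio of Fabp4 to Cfd was 1.44, 1.14, 2.65 and 0.927 in controls 1 to 4 and 0.657, 0.497, 0.645 and 0.882 in Siglec-XII 1 to 4. The ratio of Fabp4 to Adipoq was 7.19 to 38.4 in controls and 4.52 to 6.73 in Siglec-XII samples. For both ratios the highest Siglec-XII sample lay under the lowest control. They were 2 of 36 ratios with a value in all samples, picked out after their values were seen, so no test is given. Pecam1, an endothelial adhesion protein, stood at 2.18, 1.78, 2.48 and 2.19 TPM in controls 1 to 4 and 1.10, 1.18, 0.985 and 1.10 TPM in Siglec-XII 1 to 4, lower in every Siglec-XII sample with a log2 difference of -0.59 ± 0.12 (SE, n = 4 per group; adjusted p = 0.515 in limma). Of the 4 endothelial genes tested, 1 was lower at unadjusted p ≤ 0.05, against 7.67% of all genes (2 of 4 without control 2), and the list summed to 7.20 to 11.4 TPM in controls and 5.39 to 7.34 TPM in Siglec-XII samples. Of the 4 macrophage genes tested, 2 were lower at unadjusted p ≤ 0.05, against 7.67% of all genes, and 0 at adjusted p. These 2 were the complement genes C1qb (-0.84) and C1qc (-0.78). The count was 4 of 4 with array weights or without control 3, 1 of 4 without control 1, control 4, Siglec-XII 1 or Siglec-XII 2 or with a replicate block, and 0 of 4 with median centring. The macrophage genes summed to 11.2 to 28.1 TPM in controls and 7.38 to 12.3 TPM in Siglec-XII samples. Fabp4 itself had r = 0.10 with Pecam1 and 0.22 with C1qb, or -0.68 and 0.02 with group means removed. The part of both cell types in the level of Fabp4 was not tested.

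Other genes used by fat cells ranged widely in level, and in the median their correlation with the adipocyte genes was close to 0. Pparg, the nuclear receptor that drives fat cell differentiation, stood at 21.8 to 36.6 TPM, and Cebpa, its partner factor, at 27.4 to 46.5 TPM. Pnpla2, the first lipase of triglyceride breakdown, stood at 55.1 to 106 TPM, and the fatty acid synthesis gene Acly at 62.8 to 175 TPM. Of 36 such genes, 25 passed the filter, of which 4 passed unadjusted p ≤ 0.05, all 4 lower in Siglec-XII samples (7.67% of all genes were lower), and 0 passed adjusted p. These 4 were Lipe, hormone-sensitive lipase (-0.60), Acsl1, an acyl-CoA synthetase (-0.61), Pck1, an enzyme of glyceroneogenesis (-0.48), and Cav1, caveolin (-0.53). With median centring 0 of the 25 were lower and 1 was higher, and without Siglec-XII 3 and 4 only 1 of 23 was lower. The count was 9 of 24 without control 3, 7 of 25 without Siglec-XII 2 and 6 of 25 without Siglec-XII 1. The median log2 difference was -0.26 over the 25 and -0.15 over all genes tested. Their median r with the mean of the 7 tested adipocyte genes was -0.01, beside 0.07 over all 13157 other genes. Which cells of the colon made the RNA of these 25 genes was not tested, so this median need not describe fat cells. Adig, a small protein of fat cells, had the highest r of the 25, at 0.68. Adrb3, Aqp7, Npr3 and Tshr, which fat cells express, stayed under 0.5 TPM in all 8 samples.

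Only genes that passed the filter were ranked by likeness to the adipocyte genes, which left 25 of the 36 other adipocyte genes. Mrap and Thrsp, both among the 36, were not ranked, and their rho with Adipoq was 0.93 and 0.67. The 20 ranked genes most like the mean of the 7 tested adipocyte genes held 0 of these 25. They were led by Wdr63 (r = 0.96), Eef1akmt2 and Tfpi2 (0.94) and Mxd1 (0.93), and 19 of 13157 genes had r of at least 0.9. With group means subtracted, 11 of the 20 remained among the top 20.

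Genes that take part with lipoprotein lipase were also measured. Of the 10 partners of Lpl, 7 passed the filter, and Lrp1, a lipoprotein receptor, was the 1 gene lower in Siglec-XII samples at unadjusted p ≤ 0.05, where 7.67% of all genes were (-0.56, adjusted p = 0.515 in limma). Lrp1 did not pass without control 2, control 3, control 4, Siglec-XII 3 or Siglec-XII 4. Gpihbp1, which anchors the lipase on capillaries, stood at 0.117 to 0.910 TPM, and Lmf1, which helps it fold, at 12.4 to 18.7 TPM. The receptors of adiponectin were abundant, Adipor1 at 127 to 150 TPM and Adipor2 at 57.4 to 91.3 TPM, and the leptin receptor Lepr was low. Lepr stood at 0.106 to 0.249 TPM in controls and 0.0108 to 0.0533 TPM in Siglec-XII samples, with no overlap. It did not pass the filter, and in the limma fit without it the unadjusted p was 0.00333 (6.52% of genes passed 0.05 there) and the adjusted p 0.682. Of the 3 receptor genes tested, 0 passed unadjusted p ≤ 0.05, and with median centring 2 passed, both higher.

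Several relatives of the adipocyte genes that the colon epithelium uses stood well above them. Car1, Car2 and Car4, the carbonic anhydrases of colon epithelium, had medians of 2520, 1102 and 1310 TPM, 329-fold, 144-fold and 171-fold the median of Car3 (7.66 TPM). Plin2, the general droplet coat protein, had a median of 191 TPM, 608-fold that of Plin1, and Plin3 of 32.0 TPM. Cideb, the CIDE protein of liver and gut, had a median of 77.0 TPM against 1.33 TPM for Cidec, and Cidea 3.27 TPM. Fabp5, the epidermal fatty acid binding protein, was 23.8-fold above Fabp4, and the intestinal forms Fabp2 and Fabp6 had medians of 15.2 and 29.0 TPM. Endothelial lipase Lipg was 4.77-fold above Lpl. In some pairs the adipocyte gene was the higher. Car3 stood above Car12 (median 2.98 TPM), and the resistins had medians of 4.29 TPM for Retn, 2.03 TPM for Retnlb, the goblet cell form, and 0.931 TPM for Retnla. Of the remaining relatives with a mean of at least 1 TPM, Car12, Car13 and Car8 had means of 4.03, 19.6 and 1.04 TPM. Car12 was lower in Siglec-XII samples at unadjusted p with a log2 difference of -0.90 ± 0.30 (SE, n = 4 per group; adjusted p = 0.515 in limma), the only 1 of 16 relatives tested, while 7.67% of all genes were lower at that threshold. Without control 3 the count was 2, and without Siglec-XII 3 and 4 it was 0. Sequence windows of 31 bases shared with another gene were at most 3.97% of an adipocyte gene's own (Lpl), and 0% for Adipoq, Lep, Cfd, Plin4 and Cidec.

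**Figure D5:**
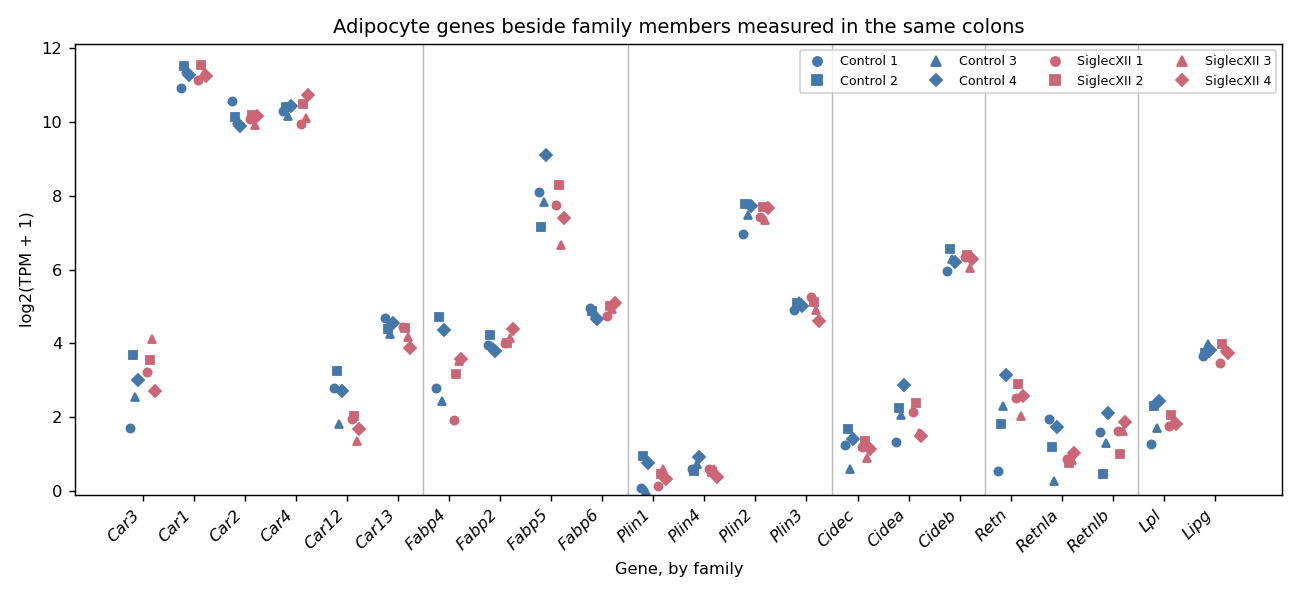
Adipocyte genes (first in each family) and their relatives as log2(TPM + 1) in the 8 samples; grey lines separate the families and Plin1 and Plin4 share one. Blue, control; red, Siglec-XII; marker shape, sample number. Car1, Car2, Car4, Plin2, Cideb and Fabp5 lie above the adipocyte gene of their family in all 8 samples, and Retn lies above Retnla and Retnlb in 7.

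Of the genes of brown fat, which burns fatty acids for heat, Ucp1, Cox8b, Dio2 and Fabp3 were highest in control 2. Ucp1, the uncoupling protein that defines it, stood at 0, 4.47, 0 and 0 TPM in controls 1 to 4 and 0, 0, 0.0492 and 0.172 TPM in Siglec-XII 1 to 4. Cox8b, a subunit of cytochrome oxidase made in brown fat and muscle, was 16.0 TPM in control 2 and 1.97 to 6.70 TPM in the other samples, and Thrsp, a lipogenic gene, was 4.19 TPM there and at most 0.603 TPM elsewhere. Control 2 was also 1 of the 2 samples with the most Adipoq, Cfd and Fabp4, whereas control 4, the other, had Ucp1 listed at 0. Dio2 and Fabp3 stood at 0.137 and 1.12 TPM in control 2, against at most 0.0648 and 0.951 TPM elsewhere. The remaining genes of the list were not highest there. Elovl3 at 2.18 TPM, Ppargc1a at 10.2 TPM and Prdm16 at 3.94 TPM in control 2 were each exceeded in other samples. Cidea was 3.75 TPM there against 6.28 TPM in control 4, and Cox7a1 195 TPM against 235 TPM in Siglec-XII 3. Of the 6 brown fat genes tested, 0 passed unadjusted p ≤ 0.05.

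Markers of other tissues near mesenteric fat were read in the same samples. Mesothelin, Msln, a marker of the lining of the peritoneum, stood at 12.4 TPM in Siglec-XII 4 and at most 1.45 TPM elsewhere, and 9 mesothelial genes other than Krt5 summed to 30.7 TPM there and 1.31 to 5.71 TPM elsewhere. Krt5, which squamous epithelium shares, ranged from 68.7 to 1916 TPM. The 10 squamous genes, a list chosen after the values were seen, summed to 18100 TPM in control 1 and 9415 TPM in control 4, against 742 to 5041 TPM in the other samples, and 1 of 10, Dsg3, was lower in Siglec-XII samples at unadjusted p ≤ 0.05, against 7.67% of all genes. All 10 had differences below 0, with a median of -1.40, and the count was 6 of 10 without control 3 or without Siglec-XII 2, 4 of 10 with a replicate block, and 0 of 10 without control 1, control 4, Siglec-XII 1, Siglec-XII 3 or Siglec-XII 4 or with median centring. Pancreatic enzymes Cpa1, Pnlip and Amy2b were listed at 0 in all samples, although Cela1 (806 to 1223 TPM) and Clps (54.0 to 78.7 TPM) were not, and 0 of 2 tested passed. Of 4 tested genes of fat stroma, 2 of lymph node and B cells and 10 of colon epithelium, 0 passed unadjusted p ≤ 0.05. The stroma gene Pdgfra stayed at or below 0.505 TPM. Siglec-XII 3 and Siglec-XII 4 had the fewest genes at a TPM of at least 1 (12827 and 12748, against 13132 to 13715 in the other samples). Without both, the smallest adjusted p of an adipocyte gene was 0.99 and Fabp4 differed by -1.03 (unadjusted p = 0.20 in limma), an alternative chosen after seeing the data.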

How the data were processed

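Expression was measured by RNA-seq of distal colon in 4 control and 4 Siglec-XII samples. The authors quantified transcripts with kallisto 0.45.0 on GRCm38, per the submitters' processing notes (the study's methods name another version and build), and deposited 1 log2(TPM + 1) value per gene and sample, with no adjustment between samples. TPM carries no depth, so no interval or detection floor that needs counts was computed, and the 4 samples per group limit the precision. The labels give the library kit as stranded total RNA and the study's methods as stranded mRNA.

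Groups were taken from the labels. Genes of 1 TPM or more in 4 or more samples were fitted by linear models with a moderated, intensity-dependent variance (lmFit and eBayes, trend on; limma 3.58.1, R 4.3.3; pseudocount 1), Siglec-XII minus control, with Benjamini-Hochberg adjustment over all genes tested. Unadjusted p-values come from the same limma fit and are not corrected for the number of genes. Genes under the filter were read from the fit of 31352 genes without it. The fit was tested on simulated data. Correlations, ratios and sums are descriptions with no test.

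Named were all 10 adipocyte genes, up to 4 genes per list (highest mean, lowest p), relatives with a mean of at least 1 TPM, the genes most like the adipocyte genes, and genes on which a result turned. The members and lists were chosen with earlier results of these data known. Of the gene IDs, 98.3% were in the GENCODE release used for positions. The alternatives were other filters, a pseudocount of 0.1, median centring, quantile normalization, array weights, a replicate block and each sample left out.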

Additional observations from a re-analysis of the deposited data

Results flagged for a closer look

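Among 51 genes in 2 groups each (102 groups of 4 samples), 3 had 1 sample far from the other 3 of its group, and chance alone gives about 1 in 20, or 5.1. Divided by the whole range of its group, the distance of that sample to its neighbour was 1 for Ucp1 in control 2 (2.45 on the log2(TPM + 1) scale, the other controls being listed at 0). It was 0.893 for Msln in Siglec-XII 4 (3.75, nearest 0.56) and 0.87 for Mylpf, a skeletal myosin light chain, in Siglec-XII 3 (4.57, nearest 3.86). None of the 10 adipocyte genes had such a sample. The sources of these values were not tested.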

How the results depend on the processing

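No adipocyte gene passed adjusted p ≤ 0.05 in limma under any alternative run, with the smallest adjusted p between 0.383 and 0.99. The count at unadjusted p ≤ 0.05 was 0 throughout, except that omitting 1 sample gave from 0 to 1 (Car3 without control 2, Retn without control 4). Of the 146 recomputed differences of single genes, 24 reversed sign, all of genes that passed no threshold. Centring on the median gene gave 0.15 for Plin1, 0.0445 for Plin4, 0.12 for Cidec and 0.17 for Lpl. Quantile normalization gave 0.0696 for Cidec and 0.18 for Lpl, array weights -0.23 for Adipoq and 0.0302 for Cidec, a pseudocount of 0.1 gave 0.18 for Plin1, and leaving out Siglec-XII 3 and 4 gave 0.0373 for Cidec. Omitting 1 sample gave from -0.29 to 0.29 for Adipoq, -0.0328 to 0.10 for Lep, -0.19 to 0.84 for Cfd, -0.21 to 0.10 for Plin1, -0.30 to 0.0601 for Cidec and -0.26 to 0.12 for Lpl. The sign of Plin1 and Lpl turned without control 2, control 4 or Siglec-XII 1, and that of Cidec without control 2. The median over the adipocyte genes tested was between -0.19 and 0.29 in the same way. The cause of these reversals was not tested. Of the 20 genes most like the adipocyte genes, 11 were among the top 20 with group means subtracted. The samples share only a number: same-numbered samples had deviations correlated at -0.16, -0.20, 0.10 and -0.0025, and the fit with the replicate block left 0 adipocyte genes at adjusted p ≤ 0.05 (smallest 0.628) and 0 at unadjusted p ≤ 0.05. TPM values hold no depth, so levels under 1 TPM, those of Lep, Plin1 and Plin4, carry an unknown counting error.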
